A study of Danio rerio with 6 samples.

Results

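The genes that make, hold and clear retinoic acid were described in pools of zebrafish larvae kept with or without a tire wear particle (TWP) leachate. They were taken by symbol from the deposited gene table: rdh10a, rdh10b, dhrs3a, dhrs3b, aldh1a2, aldh1a3, cyp26a1, cyp26b1, cyp26c1 and crabp2a, which are 10 of its 24826 genes. All 10 passed the filter on low counts and were tested. The leachate group is named TWP 700, and the titles read the number as a treadwear grade where the design text reads it as a concentration, so it serves here as a name. All larvae were wildtype, bred from adults bought from an aquarium supplier, and were kept in their medium from 4 to 168 h post-fertilization with a change to fresh dishes at 72 h. The control group received 0.001% bovine serum albumin as a surfactant control, and the labels record none for the leachate group. Each group had 3 samples labelled biological replicates, each a pool of 80 whole larvae, called control pools 1 to 3 and leachate pools 1 to 3. Other leachates of the study were not analysed here.

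Retinoic acid is made from retinol (vitamin A) in a pair of oxidations and acts by binding nuclear receptors that switch target genes on. In the first step, which is reversible, retinol dehydrogenases such as Rdh10 turn retinol into retinal and reductases such as Dhrs3 turn retinal back. In the second, retinaldehyde dehydrogenases of the Aldh1a family oxidise retinal to retinoic acid, and Cyp26 enzymes then hydroxylate retinoic acid for clearance. In fish larvae the signal patterns the hindbrain, fins, heart, eye and skeleton, and cyp26a1 and dhrs3a are widely used as genes that retinoic acid itself induces.

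The synthesis gene aldh1a2 and the binding protein gene crabp2a were higher in the leachate group, and the remaining 8 genes did not pass the test. aldh1a2 was at 18.5 ± 0.751 CPM (reads of a gene per library, all libraries scaled to one size) in controls and 30.4 ± 1.70 CPM in leachate pools (SD, n = 3 each), 1.65-fold. crabp2a was at 12.8 ± 2.35 CPM against 18.9 ± 2.59 CPM, 1.48-fold. None of the 3 breakdown genes passed. Of the 10 genes, 2 were called higher and 0 lower by edgeR's quasi-likelihood test at an adjusted p under 0.05, while 7.87% of all 23761 tested genes were called higher and 7.29% lower. In either direction that is 20% of the members beside 15.2% of all genes, a share near the background. At an unadjusted p under 0.05, 3 were higher and 0 lower, beside 29.8% of all genes in either direction. DESeq2 and limma-voom each called 2 of the 10 higher and 0 lower. Over all genes DESeq2 called 2228 higher and 2129 lower, and limma-voom 1908 and 1712. The median log2 fold change of the 10 genes was 0.18, that of all genes -0.003, and 7 of the 10 lay above 0. The number called higher was 1 without control pool 1, without control pool 2 or without leachate pool 2. It was 3 without control pool 2 and leachate pool 1 together. Over all genes the higher calls in those fits were 970, 2063, 1128 and 2648 in that order, beside 1871 with all pools. In whole larvae, a change in the number of cells of a type and a change in RNA per cell cannot be told apart.

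**Figure D1:**
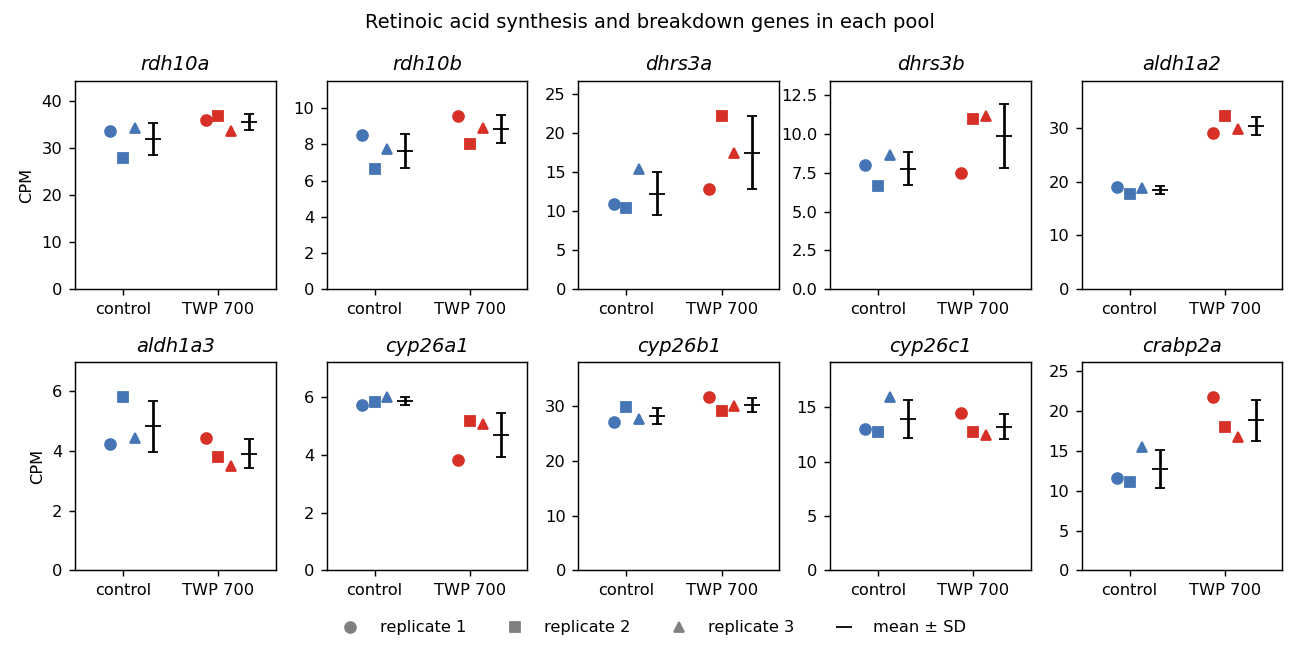
CPM of each of the 10 genes (y axis, from 0) in the 3 control pools (blue) and the 3 TWP 700 leachate pools (red), with mean ± SD in black and the replicate number as the marker shape. The groups do not overlap for aldh1a2 and crabp2a, which lie higher in the leachate pools, and for cyp26a1, which lies lower.

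The pools held between 37030725 and 48431952 counts, and the members' counts ranged from 133 to 1621 per pool. CPM here uses library sizes scaled by TMM, so directions are relative to the bulk of genes. In the longest 10% of genes, control pool 2 (0.196) and leachate pool 1 (0.103) lay above the other pools (-0.12 to -0.035) in median log2 deviation. TPM, which is scaled by gene length, is used mainly to compare genes with each other and to sum them. On the log2(TPM + 0.1) scale the median gene lay 0.16 higher in the leachate group, so TPM differences between groups are read against that shift.

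All 10 genes were at moderate levels. In controls rdh10a was the most abundant at 15.6 ± 1.89 TPM, above all the others in every pool. It was followed by cyp26b1 (9.81 ± 1.11 TPM), aldh1a2 (9.52 ± 0.965 TPM) and dhrs3a (8.65 ± 1.1 TPM), whose ranges overlapped from each to the next. A lower tier with overlapping ranges held crabp2a (5.81 TPM), rdh10b (5.70 TPM) and dhrs3b (5.41 TPM). The lowest tier was cyp26c1 (3.96 TPM), cyp26a1 (3.69 TPM) and aldh1a3 (2.95 TPM). These levels put the control members between the 44.6 percentile (aldh1a3) and the 84.8 percentile (rdh10a) of all genes in the table. In the leachate pools aldh1a2 was second at 17.6 ± 1.33 TPM, its range overlapping that of rdh10a (19.6 ± 2.51 TPM) and of dhrs3a (13.9 ± 2.64 TPM). cyp26c1, cyp26a1 and aldh1a3 were again the 3 lowest.

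Of the genes for the first oxidation, rdh10a and rdh10b encode the retinol dehydrogenase that supplies retinal in embryos. rdh10a was at 33.7, 28.0 and 34.2 CPM in control pools 1 to 3 and at 36.0, 36.9 and 33.6 CPM in leachate pools 1 to 3. The groups overlapped, with control pool 2 the lowest. Its fold was 1.11 with a 95% interval of 0.937 to 1.32 (adjusted p = 0.409), and its log2 value of 0.15 was 0.07 without control pool 2 and 0.06 without both that pool and leachate pool 1. rdh10b was at 8.51, 6.64 and 7.73 CPM in controls and at 9.59, 8.03 and 8.93 CPM in leachate pools, again overlapping. Its fold was 1.16, with an interval of 0.930 to 1.44 (adjusted p = 0.368), and its log2 value of 0.21 was 0.12 without control pool 2 and 0.06 without both pools. Within each pool rdh10a stood at 2.46 to 3.02 times rdh10b in TPM, and the ratio ranges of the groups overlapped.

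dhrs3a and dhrs3b encode the reductase of the reverse step, which lowers the retinal available for retinoic acid. dhrs3a had the widest spread of the 10 genes in both groups, a coefficient of variation of 22.3% in controls and 26.9% in leachate pools. It was at 11.0, 10.4 and 15.4 CPM in control pools 1 to 3 and at 12.8, 22.3 and 17.5 CPM in leachate pools 1 to 3. Leachate pool 1 lay below control pool 3, so the groups overlapped. The log2 fold change was 0.52 ± 0.21 (SE), a fold of 1.43 with a 95% interval of 1.03 to 1.99, unadjusted p = 0.0373 and adjusted p = 0.139. The gene passed without leachate pool 1 (log2 0.70, adjusted p = 0.0385) and without control pool 2 and leachate pool 1 together (0.60, 0.0161). It also passed with library totals as the scaling (0.65, 0.0295) and on the log2(TPM + 0.1) scale (0.67, 0.0225), and its log2 value was 0.31 without leachate pool 2 (adjusted p = 0.387). Its paralog dhrs3b was at 8.02, 6.64 and 8.68 CPM in controls and at 7.52, 11.0 and 11.2 CPM in leachate pools. Here too leachate pool 1 was the lowest of its group and lay inside the control range. The fold was 1.27, with an interval of 0.971 to 1.66 (adjusted p = 0.22), and dhrs3b passed without control pool 2 and leachate pool 1 together (log2 0.41, adjusted p = 0.0425). In TPM the groups did not overlap for either gene, but the share of all genes not overlapping in TPM was not counted. In CPM, where both genes overlapped, that share was 35.1%. dhrs3a ranged from 7.68 to 9.84 TPM in controls and from 11.7 to 16.8 TPM in leachate pools, and dhrs3b from 4.78 to 6.02 TPM and from 6.67 to 8.30 TPM. The median gene lay 0.16 higher in the leachate group on the log2(TPM + 0.1) scale, a shift that favours such separation upward. An lncRNA gene overlaps dhrs3a in the RefSeq gene table, and the sources used here do not say whether the authors' counting used strand.

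aldh1a2 encodes the main retinoic acid synthesising enzyme of the trunk in vertebrate embryos, and zebrafish mutants of it lack pectoral fins. Control pools 1 to 3 held 19.0, 17.6 and 18.8 CPM, and leachate pools 1 to 3 held 29.1, 32.4 and 29.9 CPM. Every leachate pool lay above every control pool, and within either group the pools differed little, with coefficients of variation of 4.06% and 5.6%. The log2 fold change was 0.72 ± 0.11 (SE), with a 95% interval of 1.40-fold to 1.93-fold (adjusted p = 0.00122). It ranged from 0.68 to 0.88 over 19 alternatives and passed in all 19, the largest adjusted p being 0.0099 without leachate pool 2. Without control pool 2 and leachate pool 1 together it was 0.72 (adjusted p = 6.89e-05).

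The paralog aldh1a3, known in zebrafish for its expression in the ventral retina and ear, lay on the other side of 0. It was at 4.24, 5.80 and 4.44 CPM in controls and at 4.43, 3.81 and 3.50 CPM in leachate pools. The groups overlapped, and control pool 2 was the highest of the 6. The fold was 0.814, with an interval of 0.612 to 1.08 (adjusted p = 0.323). Its log2 value of -0.30 was -0.15 without control pool 2 (adjusted p = 0.661). In the RefSeq gene table aldh1a3 is overlapped by lrrk1, which averaged 12.3 CPM in controls and 10.2 CPM in leachate pools (log2 -0.27, adjusted p = 0.221). aldh1a3 is also overlapped there by the protein-coding gene LOC141375297, which was absent from the deposited gene table. The ratio of aldh1a2 to aldh1a3 in TPM was 3.79, 2.56 and 3.59 in control pools and 5.54, 7.21 and 7.26 in leachate pools. The groups did not overlap in this ratio, and aldh1a2 made up 76.4% of the summed TPM of both genes in controls and 86.8% in leachate pools.

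**Figure D2:**
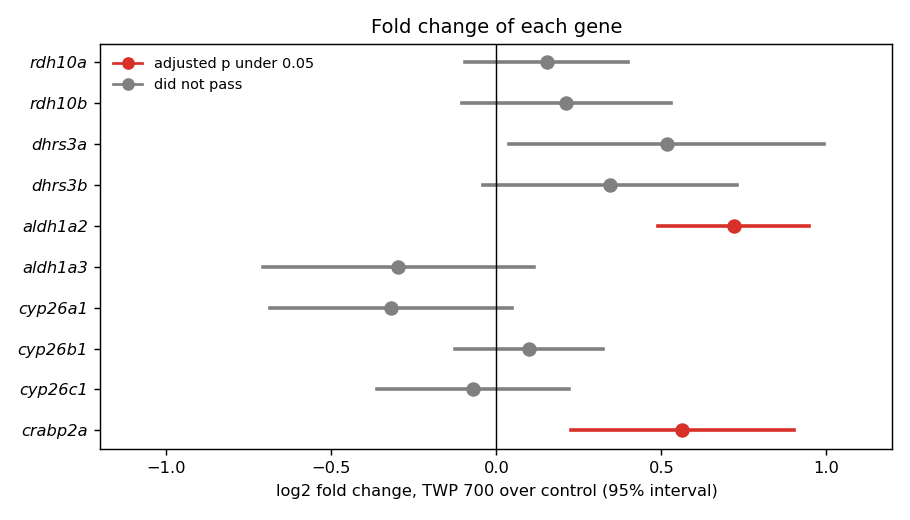
Log2 fold change of leachate over control (x axis) for each gene, with its 95% interval from edgeR; red marks genes with an adjusted p under 0.05 and grey those that did not pass. The intervals of aldh1a2 (0.49 to 0.95), crabp2a (0.23 to 0.90) and dhrs3a (0.04 to 0.99) lie above 0, and the other 7 include 0.

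The Cyp26 enzymes clear retinoic acid, each in its own tissues. cyp26a1, the family member most readily induced by retinoic acid, was at 5.73, 5.85 and 6.01 CPM in control pools 1 to 3 and at 3.83, 5.18 and 5.10 CPM in leachate pools 1 to 3. Every leachate pool lay below every control pool, leachate pool 1 the furthest. The control pools were close together, with a coefficient of variation of 2.4% against 16.1% in leachate pools. The log2 fold change was -0.32 ± 0.17 (SE), a fold of 0.801 with a 95% interval of 0.622 to 1.03, unadjusted p = 0.0813 and adjusted p = 0.23. It was negative in all 19 alternatives, from -0.39 to -0.16, and passed in 0 of them. Without leachate pool 1 it was -0.19 (adjusted p = 0.509), and without that pool and control pool 2 also -0.19 (0.507). Groups did not overlap in CPM for 3 of the 10 members, and for 35.1% of all tested genes. In TPM, where the median gene lay higher in the leachate group, the ranges of cyp26a1 overlapped, at 3.38 to 3.88 in controls and 3.05 to 3.44 in leachate pools.

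cyp26b1, which acts in the hindbrain and in the developing skeleton of fish, was the most abundant of the 3. It was at 27.1, 29.9 and 27.7 CPM in controls and at 31.6, 29.0 and 30.1 CPM in leachate pools. The groups overlapped, and the fold was 1.07 with an interval of 0.918 to 1.25 (adjusted p = 0.566). cyp26c1, known for its role in the hindbrain beside the other 2, was at 13.0, 12.7 and 15.9 CPM in controls and at 14.5, 12.8 and 12.4 CPM in leachate pools. Its fold was 0.951, with an interval of 0.778 to 1.16 (adjusted p = 0.767). The sign of its log2 value changed with the setting, negative in 16 of 19 alternatives and positive with library totals (0.07), on the log2(TPM + 0.1) scale (0.10) and without control pool 3 (0.03). Without control pool 2 and leachate pool 1 together it was -0.20 (adjusted p = 0.327). An lncRNA gene overlaps cyp26c1 in the RefSeq gene table. The intervals of cyp26b1 and cyp26c1 do not reach the 1.40-fold that bounds the rise of aldh1a2 from below.

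Set against each other within a pool, breakdown and synthesis transcripts stood at different ratios in the groups. The summed TPM of cyp26a1, cyp26b1 and cyp26c1 was 18.0, 18.3 and 16.0 in control pools 1 to 3 and 22.3, 17.9 and 18.3 in leachate pools 1 to 3, so the groups overlapped. That of aldh1a2 and aldh1a3 was 13.3, 13.0 and 11.0 in controls and 22.4, 20.0 and 18.6 in leachate pools, with no overlap. The ratio of the cyp26 sum to the aldh1a sum was 1.35, 1.41 and 1.45 in controls and 0.995, 0.897 and 0.984 in leachate pools. In TPM every leachate pool thus lay below 1 and every control pool above it. In CPM, which does not allow for gene length, the mean ratio was 2.06 in controls and 1.41 in leachate pools, also with no overlap. On that scale every pool lay above 1, the leachate pools at 1.49, 1.30 and 1.43, so the side of 1 depends on the unit. The ratio holds aldh1a2, whose rise is given above, so it is a description of the same counts and not a further test. For the first step, the ratio of summed dhrs3 to summed rdh10 TPM was 0.589, 0.647 and 0.760 in controls and 0.583, 0.981 and 0.880 in leachate pools. Leachate pool 1 was the lowest of the 6 in that ratio, below all controls.

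**Figure D3:**
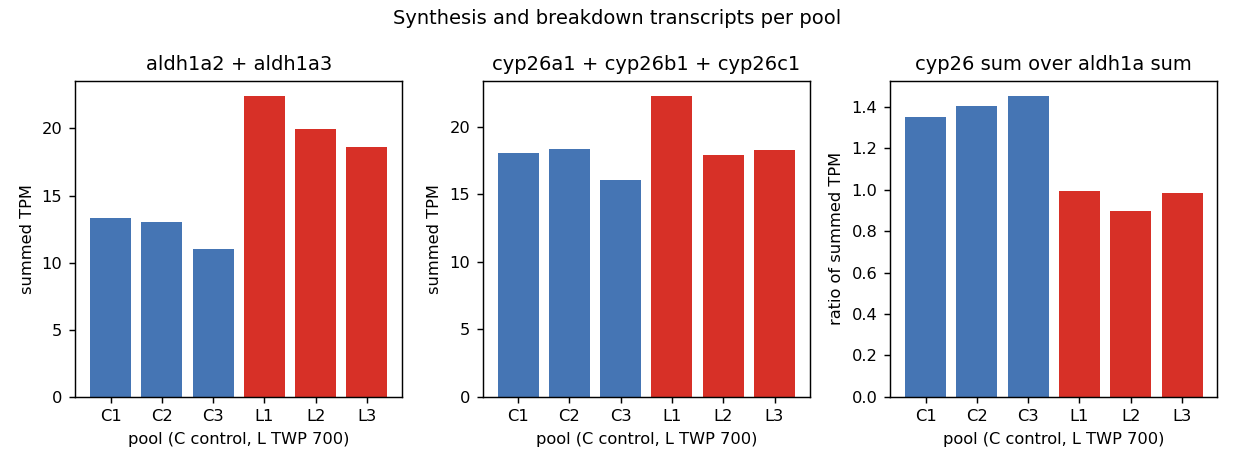
Summed TPM of the retinaldehyde dehydrogenase genes (left), summed TPM of the cyp26 genes (middle) and the ratio of the second sum to the first (right) in control pools C1 to C3 (blue) and TWP 700 leachate pools L1 to L3 (red), with bars from 0. The ratio lies between 1.35 and 1.45 in controls and between 0.897 and 0.995 in leachate pools.

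crabp2a encodes a cellular retinoic acid binding protein, a family of which the mammalian member carries retinoic acid to its nuclear receptors. It was at 11.7, 11.2 and 15.5 CPM in control pools 1 to 3 and at 21.8, 18.0 and 16.8 CPM in leachate pools 1 to 3. The groups did not overlap, though control pool 3 came close to leachate pool 3, and leachate pool 1 was the highest. The log2 fold change was 0.56 ± 0.15 (SE), 1.17-fold to 1.87-fold as a 95% interval (adjusted p = 0.0312). The call was lost without control pool 1 (log2 0.50, adjusted p = 0.125), without control pool 2 (0.48, 0.0539), without leachate pool 1 (0.45, 0.0928) and without leachate pool 2 (0.61, 0.0696). Without control pool 2 and leachate pool 1 together it was 0.37 (adjusted p = 0.0629). The value stayed above 0 in all 19 alternatives and passed in 12.

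**Figure D4:**
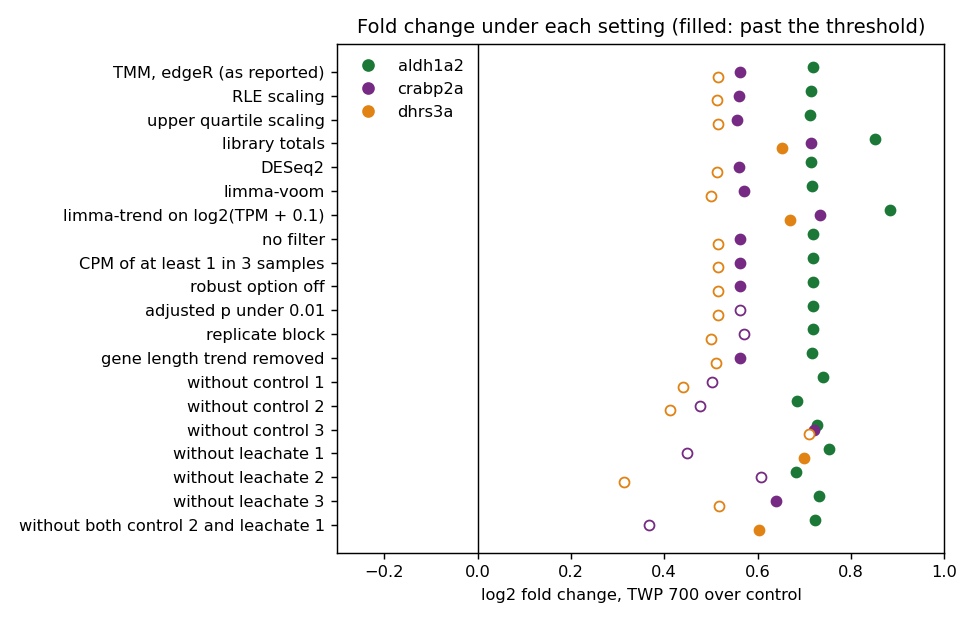
Log2 fold change of leachate over control (x axis) of aldh1a2 (green), crabp2a (purple) and dhrs3a (orange) under the reported setting and each of 19 alternatives (y axis), filled where the gene passed the threshold of that setting. aldh1a2 is filled throughout, crabp2a in 12 alternatives and dhrs3a in 4.

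The pools did not order the members alike. Control pool 2 was the lowest of the 6 pools for aldh1a2, dhrs3a, dhrs3b, rdh10a, rdh10b and crabp2a and the highest for aldh1a3. Leachate pool 1 was the highest for cyp26b1, rdh10b and crabp2a and the lowest for cyp26a1. The members differ in length, from the 28.1 percentile of tested genes (rdh10b) to the 81.1 percentile (cyp26c1), and aldh1a2 lay at 50.6. Removing a gene length trend from each pool left aldh1a2 at log2 0.72 (adjusted p = 4.58e-04), crabp2a at 0.56 (0.0221) and dhrs3a at 0.51 (0.0948).

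Of 84 other retinoid symbols listed, 77 were in the table and tested. Among these, 11 rose and 6 fell, 14.3% and 7.79% of the list beside 7.87% and 7.29% of all genes, and the median log2 fold change was 0.03. Counts were 5 higher and 2 lower without control pool 1, 14 and 10 without control pool 2, 6 and 3 without leachate pool 2, and 7 and 4 without leachate pool 3. They were 15 higher and 12 lower without control pool 2 and leachate pool 1 together, 13 and 1 with library totals, and 17 and 1 on the log2(TPM + 0.1) scale. The counts over all genes, 1871 higher and 1731 lower in the main test, moved with these settings as well. They were 970 and 908 without control pool 1, and 2063 and 1996 without control pool 2. Without leachate pool 2 they were 1128 and 896, and without leachate pool 3 1123 and 928. Without both pools they were 2648 and 2606, with library totals 2809 and 868, and on the log2(TPM + 0.1) scale 2482 and 627. The lists were chosen with earlier results of these data known, and their counts are descriptions.

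Of 15 genes for retinol carriage and storage, 4 rose and 0 fell, beside 7.87% and 7.29% of all genes. At an unadjusted p under 0.05 there were 6 higher and 1 lower, beside 29.8% of all genes in either direction. DESeq2 called 5 and 1 of the list, and limma-voom 4 and 0, beside 2228 and 2129 of all genes by DESeq2 and 1908 and 1712 by limma-voom. lratb.2, of the acyltransferase family that stores retinol as esters, was at 5.36, 1.12 and 4.95 CPM in controls and at 18.7, 22.8 and 22.4 CPM in leachate pools. Control pool 2 stood lowest and every leachate pool far above all controls. Its log2 fold change was 2.47 ± 0.53 (SE, adjusted p = 0.0369), and the call was lost on leaving out any pool other than control pool 2 (adjusted p = 0.0684 to 0.101). rbp5, a cellular retinol binding protein gene, averaged 15.9 ± 4.39 CPM in controls and 34.6 ± 1.84 CPM in leachate pools (log2 1.12, adjusted p = 0.00306). rbp2b, a second gene of that kind, averaged 16.2 ± 2.44 CPM in controls and 34.2 ± 4.57 CPM in leachate pools (log2 1.07, adjusted p = 6.89e-04). Both passed in all 19 alternatives. rbp2a, the more abundant paralog of rbp2b, averaged 239.3 ± 118.8 CPM in controls and 199.5 ± 57.3 CPM in leachate pools (log2 -0.26, adjusted p = 0.732). It was named after its value was seen. rbp4, the plasma retinol carrier of the liver and by far the most abundant of the list, averaged 2520 ± 86.4 CPM in controls and 1829 ± 221 CPM in leachate pools (log2 -0.46). It missed the threshold with edgeR (adjusted p = 0.0809), passed with DESeq2 (log2 -0.47, adjusted p = 0.00496) and with the length trend removed (0.019), and was named after its value was seen. The related gene rbp4l was called higher by edgeR, opposite to rbp4. It averaged 281.9 ± 21.4 CPM in controls and 427.3 ± 40.7 CPM in leachate pools (log2 0.60, adjusted p = 0.0148). rbp4l too was named after its value was seen. Summed TPM of 7 liver markers was 6104 to 6832 in controls and 7023 to 8329 in leachate pools, with 3 of 7 above 0, 4 below and 1, tfa, called higher. These sums are in TPM, where the median gene lay higher in the leachate group, while the values of rbp4 are in CPM. The largest part of the sum, apoa2, averaged 3623 TPM in controls and 4906 TPM in leachate pools and was not called (adjusted p = 0.384). The part of the liver in the value of rbp4 was not tested. The list's count of higher genes was 2 without control pool 1 or without leachate pool 2, and 1 gene was lower without control pool 2. On the log2(TPM + 0.1) scale 7 genes were higher.

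Carotenoids are a dietary source of retinal, beside preformed retinol and its esters. Of 7 genes for their uptake and cleavage, 2 rose and 0 fell, beside 7.87% and 7.29% of all genes. The list's counts were 3 and 0 at an unadjusted p under 0.05, 3 and 0 by DESeq2 and 2 and 0 by limma-voom. bco1l, of the family that cleaves carotenoids to retinal, was at 10.1, 9.47 and 11.5 CPM in controls and at 25.8, 24.0 and 23.2 CPM in leachate pools. The groups lay far apart compared with their spread (log2 1.23 ± 0.12, adjusted p = 1.1e-04), and it passed in all 19 alternatives. The more abundant bco1 averaged 41.7 ± 8.08 CPM in controls and 44.3 ± 3.29 CPM in leachate pools (log2 0.09, adjusted p = 0.739). bco1 was named after its value was seen. bco2l, of the related eccentric cleavage family, averaged 4.75 ± 0.706 CPM in controls and 7.76 ± 1.16 CPM in leachate pools (log2 0.71, adjusted p = 0.0187). The more abundant bco2a lay on the other side of 0, at 13.8 ± 0.24 CPM in controls and 11.7 ± 0.726 CPM in leachate pools (log2 -0.235, adjusted p = 0.202). bco2b lay above 0 and did not pass (log2 1.09, adjusted p = 0.0536). bco2a and bco2b were named after their values were seen. bco2l did not pass without control pool 1 (adjusted p = 0.0642), which left 1 gene of the list higher, or without leachate pool 2 (0.0861).

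Other oxidoreductases of retinoids split, with 3 of 18 higher and 4 lower by edgeR, beside 7.87% and 7.29% of all genes. At an unadjusted p under 0.05 there were 4 higher and 8 lower, DESeq2 called 3 and 5, and limma-voom 4 and 4. With library totals there were 3 and 1, and on the log2(TPM + 0.1) scale 5 and 1. rdh5, which in mammals makes 11-cis-retinal in the retinal pigment epithelium, was at 22.0, 10.1 and 21.4 CPM in controls and at 45.2, 55.3 and 57.4 CPM in leachate pools (log2 1.56 ± 0.29, adjusted p = 0.0134). Every leachate pool was above all controls, and control pool 2 was again the lowest. sdr16c5b, of an epidermal retinol dehydrogenase family, averaged 42.5 ± 7.27 CPM in controls and 61.4 ± 3.20 CPM in leachate pools (log2 0.53, adjusted p = 0.0212). Its paralog sdr16c5a, named after its value was seen, averaged 18.7 ± 3.36 CPM in controls and 13.6 ± 1.88 CPM in leachate pools (log2 -0.46, adjusted p = 0.0713). Epidermal markers were at 10280 to 12230 summed TPM in controls and 6700 to 9012 in leachate pools, with 4 of 4 below 0 and 1, cyt1, called lower. The part of the epidermis in the value of sdr16c5b was not tested. retsat, which saturates retinol, averaged 27.5 ± 2.62 CPM in controls and 38.6 ± 1.66 CPM in leachate pools (log2 0.49, adjusted p = 0.0123). Lower were the alcohol dehydrogenase gene adh8a (5.91 to 2.81 CPM, log2 -1.08, adjusted p = 0.0121), the photoreceptor retinol dehydrogenase gene rdh8b (8.44 to 5.62 CPM, log2 -0.59, adjusted p = 0.0167) and dhrs4 (14.4 to 9.70 CPM, log2 -0.57, adjusted p = 0.0234). The more abundant paralogs adh8b (97.7 to 121.9 CPM, log2 0.32, adjusted p = 0.278) and rdh8a (35.9 to 35.6 CPM, log2 -0.01, adjusted p = 0.967) did not pass. Both were named after their values were seen. The calls of this list depended on the pools. Without control pool 1, sdr16c5b (adjusted p = 0.0832), adh8a (0.0633), rdh8b (0.0652) and dhrs4 (0.0546) did not pass. Without leachate pool 2, sdr16c5b (0.0726), retsat (0.0543), rdh8b (0.0835) and dhrs4 (0.0914) did not. sdr16c5b was also lost without leachate pool 3 (0.0858), and dhrs4 without control pool 3 (0.0811) or leachate pool 1 (0.0647). rdh8b (0.0845) and dhrs4 (0.0577) were lost with library totals and on the log2(TPM + 0.1) scale (0.222 and 0.126). The list's counts were 2 higher and 1 lower without control pool 1, 4 and 8 without control pool 2, 4 and 8 without that pool and leachate pool 1, and 1 and 2 without leachate pool 2.

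**Figure D5:**
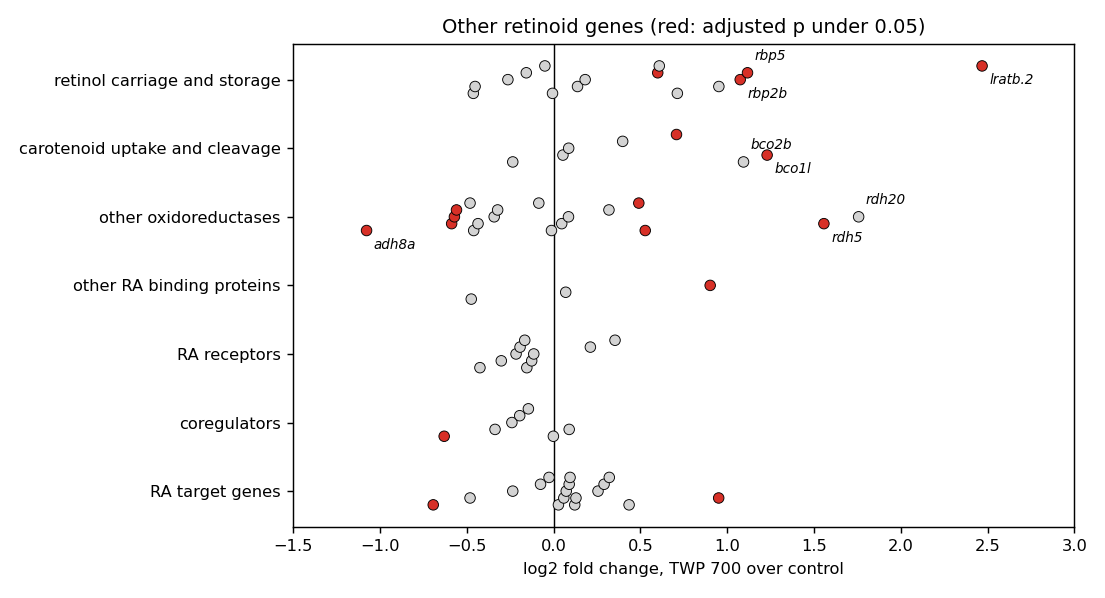
Log2 fold change of leachate over control (x axis) of 77 other retinoid genes in 7 lists (y axis, points spread vertically only for legibility), red where the adjusted p was under 0.05 and grey where the gene did not pass; genes with a log2 value beyond 1 in size are named. No receptor gene is red, and lratb.2 lies furthest to the right at 2.47.

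The other 3 retinoic acid binding protein genes held 1 that rose, beside 7.87% of all genes. crabp1b was at 2.01, 2.72 and 3.08 CPM in controls and at 4.71, 4.59 and 5.28 CPM in leachate pools (log2 0.90 ± 0.20, adjusted p = 0.012), with no overlap. It did not pass without control pool 1 (0.0544) or without leachate pool 3 (0.0526), and 1 gene of the 3 was lower without leachate pool 2. crabp2b, the paralog of crabp2a, averaged 3.36 CPM in controls and 3.54 CPM in leachate pools (log2 0.07, adjusted p = 0.861) and was chosen after the values were seen. crabp1a, the paralog of crabp1b, lay on the other side of 0. It averaged 6.58 ± 0.868 CPM in controls and 4.73 ± 1.40 CPM in leachate pools (log2 -0.47, adjusted p = 0.155), with overlapping groups. crabp1a too was chosen after the values were seen.

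Among all tested genes edgeR called 15.2% in either direction, and 29.8% had an unadjusted p under 0.05. Of the 10 retinoic acid and retinoid X receptor genes, 0 were called higher or lower by edgeR, by DESeq2 or by limma-voom, and 0 had an unadjusted p under 0.05. Their log2 values ran from -0.42 (rargb) to 0.35 (rxrga), with a median of -0.16, and 8 of 10 lay below 0. The most abundant by TPM, rxrbb, averaged 30.8 ± 3.29 CPM in controls and 27.4 ± 1.75 CPM in leachate pools (log2 -0.17, adjusted p = 0.375). Of 7 coregulator genes, ncoa1, which encodes a nuclear receptor coactivator, was the 1 called, lower at 25.1, 38.1 and 24.7 CPM in controls against 21.3, 17.4 and 18.0 CPM in leachate pools (log2 -0.63 ± 0.17, adjusted p = 0.0319). Control pool 2 stood above the rest, and without it the log2 value was -0.40 (adjusted p = 0.0419). The call was lost without leachate pool 2 (0.128), without leachate pool 3 (0.113), with library totals (0.121) and on the log2(TPM + 0.1) scale (0.239). Without control pool 2 and leachate pool 1 together, 2 coregulator genes were lower.

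Among 17 genes used as retinoic acid targets in fish or mammals, 1 rose and 1 fell, beside 7.87% and 7.29% of all genes. Of the 17, 12 lay above 0, with a median log2 fold change of 0.09. tgm2a, a transglutaminase gene of the family whose mammalian member retinoic acid induces, was at 1.68, 3.29 and 2.52 CPM in controls and at 6.60, 4.08 and 3.71 CPM in leachate pools (log2 0.95 ± 0.29, adjusted p = 0.0479). The groups did not overlap, and leachate pool 1 was the highest. cdx1b, a homeobox gene of the hindgut and intestine, was at 5.59, 5.17 and 4.29 CPM against 3.94, 2.96 and 2.39 CPM (log2 -0.69 ± 0.21, adjusted p = 0.0488). Leaving out any pool other than control pool 2 lost tgm2a (adjusted p = 0.0544 to 0.159), and leaving out control pool 1, control pool 2, leachate pool 2 or leachate pool 3 lost cdx1b (0.0657 to 0.166). cdx1b also did not pass with library totals (0.144), on the log2(TPM + 0.1) scale (0.221), with no filter (0.0509) or with the robust option off (0.0532), nor tgm2a with that option off (0.0518) or with the replicate block (0.113). The 8 hox genes of the list, which retinoic acid sets along the trunk, had log2 values from -0.48 (hoxb1a) to 0.44 (hoxb6b), and 0 of the 8 were called, with 2 at an unadjusted p under 0.05 and 0 by DESeq2 or limma-voom.

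Marker lists of tissues that whole larvae hold were summed per pool. Their calls stand beside 7.87% of all genes called higher and 7.29% lower by edgeR, and 29.8% with an unadjusted p under 0.05. DESeq2 called more of all genes, 2228 higher and 2129 lower against 1871 and 1731 by edgeR, and limma-voom called 1908 and 1712. Every symbol but the pancreatic prss1, not analysed here, matched the table, which lists only genes with a count in every pool, so a match shows no more than that. The summed TPM of 4 pigment epithelium and pigment cell markers was 204, 73.5 and 174 in control pools 1 to 3 and 468, 468 and 418 in leachate pools 1 to 3, with 4 of 4 above 0. edgeR called 1 of the 4 higher, limma-voom 3 and DESeq2 4. The count was 4 at an unadjusted p under 0.05, on the log2(TPM + 0.1) scale, without control pool 2 and without that pool and leachate pool 1. It was 2 with library totals and 0 without leachate pool 1. lratb.2, rdh5 and rbp5 moved the same way, with control pool 2 lowest in each. That pool was also lowest in CPM for aldh1a2, dhrs3a, dhrs3b, rdh10a, rdh10b and crabp2a, so the trait is not particular to those genes. The part of pigment epithelium and pigment cells in the values of lratb.2, rdh5 and rbp5 was not tested. Of 6 intestinal markers 2 were higher and 1 lower, at 947 to 1120 summed TPM against 1493 to 1751. The lower one is cdx1b, already given among the target genes. fabp2, which edgeR did not call (adjusted p = 0.0935), averaged 353.6 TPM in controls and 828.8 TPM in leachate pools. Of 7 retinal markers 4 were lower by edgeR, DESeq2 and limma-voom, at 1001 to 1276 against 746 to 996. Lower ones numbered 1 with library totals, on the log2(TPM + 0.1) scale, without leachate pool 2 or without leachate pool 3, and 2 without control pool 1 or without control pool 3. Of 5 cartilage markers 2, matn1 and col9a1a, were higher, and the sum of all 5 was 152 to 227 against 250 to 462. The largest part of that sum, col2a1a, averaged 107.3 TPM in controls and 192.9 TPM in leachate pools and was not called (adjusted p = 0.106). acana (log2 -0.134) and sox9a (log2 -0.193) lay below 0. The groups overlapped for markers of skeletal muscle (18670 to 18820 against 16590 to 19590 summed TPM), heart (57.8 to 85.1 against 76.2 to 80.4) and pancreas (3996 to 8924 against 3797 to 5719). Of 5 muscle markers 1, acta1b, was called higher by edgeR (log2 0.937, adjusted p = 0.00315), and 4 lay below 0. Of 4 heart markers 1, nppa, was called lower (log2 -0.795, adjusted p = 0.0123), and 1 lay above 0. The 3 pancreas markers tested lay below 0. edgeR and limma-voom called 0 of them, DESeq2 called 2 lower, and 3 were lower without control pool 2. The part of these tissues in the members' values was not tested.

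All 10 members matched the RefSeq gene table by gene ID, which gives their neighbours but is of another assembly than the authors named. Of the 20 protein-coding genes that flank them, 17 were tested, and 1 was called higher and 1 lower, beside 7.87% and 7.29% of all genes. aqp9b, which flanks aldh1a2, fell from 53.8 to 24.9 CPM (log2 -1.11 ± 0.12, adjusted p = 1.74e-04), opposite to aldh1a2. On its other side polr2m averaged 7.35 CPM in controls and 7.61 CPM in leachate pools (log2 0.05, adjusted p = 0.901). cyp26a1 lies beside exoc6 and cyp26b1 beside exoc6b, and neither exocyst gene passed (adjusted p = 0.694 and 0.706). chsy1 beside aldh1a3 was the gene called higher (9.47 to 12.9 CPM, log2 0.45, adjusted p = 0.0411).

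Over the 6 pools, the genes with the profile most like that of aldh1a2 among 20862 compared were aoc2, wu:fc46h12 and mrpl16. Their root mean square differences from it in centred log2 CPM were 0.0225, 0.039 and 0.0548, where aldh1a2 itself varied by 0.364 about its mean. For cyp26a1 they were neil1 (0.0263), LOC567984 (0.0328) and LOC100004373 (0.0375), beside its own 0.219. These are descriptions over 6 pools, with no test.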

How the data were processed

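Per the labels' protocols, each stranded total RNA library came from 80 larvae whose RNA scored above 7.0 for integrity, with ribosomal RNA removed. The submitters' processing notes name HISAT2, StringTie 2.1.3b, DESeq2 and the build GRCz11 without their roles. Per the file headers, the authors deposited read counts, TPM and FPKM. The deposited read counts are whole and at least 1 throughout, so genes without a read in any 1 pool were not seen. From the deposited FPKM and the counts a relative gene length was derived. The sources used here do not say how reads were assigned to genes.

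The main test was edgeR 4.0.16 (R 4.3.3) on the counts, with TMM factors, filterByExpr on the groups and the quasi-likelihood F test (robust) between leachate and control, Benjamini-Hochberg adjusted over 23761 genes. Each SE is the log2 fold change over the square root of F, and 95% intervals use the fit's t distribution. CPM uses TMM-scaled library sizes, in which 3 reads are 0.0623 to 0.0817 CPM. No libraries of a group agreed within sampling noise (lowest chi-square per degree of freedom 8.53). P-values set the difference between groups against the spread between pools, which edgeR moderates across genes.

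Named were the 10 members, up to 3 called genes per direction of each other retinoid list (the most abundant gene where none was called), and the 3 genes nearest in profile to cyp26a1 and to aldh1a2 with a mean CPM of at least 1. The members, lists and tests were chosen with earlier results of these data known. As alternatives the scaling was RLE, upper quartile or none beyond totals; the test was DESeq2 1.42.0, limma-voom or limma-trend on log2(TPM + 0.1), both with limma 3.58.1; the filter was absent or asked for a CPM of 1 in 3 samples; and the robust option was turned off. Further ones were a threshold of 0.01, a replicate block, removal of a gene length trend, and leaving out each sample or 2 together.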

Additional observations from a re-analysis of the deposited data

How the results depend on the processing

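aldh1a2 passed in all 19 alternatives. crabp2a did not pass at an adjusted p under 0.01 (log2 0.56) or without both control pool 2 and leachate pool 1 (0.37), and ranged from 0.45 to 0.72 with 1 pool left out. dhrs3a passed with library totals (0.65), on the log2(TPM + 0.1) scale (0.67) and without both pools (0.60), and ranged from 0.31 to 0.71 with 1 pool left out. dhrs3b passed without both pools (0.41). Members called higher ranged from 1 to 2 with 1 pool left out and were 1 at an adjusted p under 0.01. Same-numbered pools did not deviate together (correlations -0.046, -0.101 and 0.031), and control pool 2 correlated at 0.118 with leachate pool 1. With so few pools per group, these correlations cannot decide whether the replicate number is a pairing. With the replicate number as a block, all calls were 1317 higher and 1248 lower, 1 member was higher, and crabp2a was at 0.57 (adjusted p = 0.0634). The samples did not each correlate best with their own number.

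Over all genes, where 1871 were higher and 1731 lower, calls were 2809 and 868 with library totals, which moved the median gene by 0.13, and 796 and 692 at an adjusted p under 0.01. Calls were 2482 higher and 627 lower on the TPM scale, and 2648 and 2606 without both pools. With 1 pool left out, higher calls ranged from 970 to 2063 and lower calls from 896 to 1996. Other retinoid genes, 11 higher and 6 lower, were 3 and 0 at an adjusted p under 0.01. Lower ones were 1 with library totals, 1 on the TPM scale against 17 higher, 11 with the length trend removed and 12 without both pools. With 1 pool left out the higher ranged from 5 to 14 and the lower from 2 to 10. The causes were not tested. The members' intervals, such as 0.622 to 1.03 for the fold of cyp26a1, give the range of change compatible with 3 pools a group. They are not a limit of detection, as dhrs3a did not pass with an interval of 1.03 to 1.99.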
